A study of Mus musculus with 12 samples.

Results

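The transcripts described here belong to 9 genes that govern entry into and exit from the cell cycle. They are the D-type cyclins Ccnd2 and Ccnd3, their kinases Cdk4 and Cdk6, the inhibitors Cdkn2c, Cdkn1a and Cdkn1b, and the antiproliferative genes Btg1 and Btg2. They are 9 of the 12394 genes that own a probe set in the annotation. Members were taken as every probe set of an Affymetrix mouse array whose single gene symbol in the platform annotation was one of these names. That gave 21 probe sets for 9 genes, of 22690 probe sets on the array. A filter on dim probe sets, placed at the 40th percentile of the mean over all arrays (log2 4.48), left 19 member probe sets of 8 genes among 13556 tested probe sets. Ccnd2 had 7 probe sets, Cdk4 had 3, Cdkn1a, Cdkn1b, Btg1 and Btg2 had 2 each, and Ccnd3, Cdk6 and Cdkn2c had 1 each. The only probe set of Cdk6 and the dimmer one of Cdkn1b fell below the filter.

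All cells carried the transgenic 5CC7 T cell receptor, and 1000000 of them were placed in each B10.A recipient through the tail vein. The 4 groups received 2 µg of MCC peptide, 0.2 µg of MCC peptide, 2 µg of 102S peptide or 0.2 µg of 102S peptide, also through the tail vein, with 3 arrays per group and 12 in all. MCC is the strong and 102S the weak agonist of this receptor, per the study's design text. Cells were sorted by flow cytometry from pooled lymph nodes 48 h after the peptide, so every group holds cells that met a peptide, and no unstimulated cells were analysed here. The labels do not say that replicates came from separate animals, so a p-value here covers only the scatter among these arrays. That scatter includes a difference in cell sex between replicate 1 and the others, described below, and may otherwise be technical. In such bulk samples fewer cells of a type and less RNA per cell cannot be told apart.

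A resting T cell leaves G1 when D-type cyclins bind Cdk4 or Cdk6, and the kinase then phosphorylates the retinoblastoma protein and releases E2F transcription factors. The INK4 proteins, to which p18 (Cdkn2c) belongs, bind Cdk4 and Cdk6 directly. The CIP/KIP proteins p21 (Cdkn1a) and p27 (Cdkn1b) bind cyclin and kinase complexes, and p27 is abundant in resting T cells. Btg1 and Btg2 recruit the CCR4-NOT deadenylase to messenger RNA and are known to hold T cells in quiescence.

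Upstream sequences from RefSeq (assembly GRCm38.p6) were available for 8 of the 9 members, in 11 windows of 300 bases, and 3 stretches that lie before the annotated start are shown. The first 2 are the 250 bases upstream of the members whose standing probe set was called between peptides, Cdk4 at chr10:127063285-127063534 on the plus strand and Cdkn2c at chr4:109666757-109667006 on the minus strand, the outer of its 2 annotated starts. The third is a 47-base stretch upstream of Btg1, at chr10:96616777-96616823 on the plus strand. Sequences run 5′ to 3′, and capitals mark an E-box (CACGTG) in Cdk4 and a FOXO-type site (GTAAACA or ATAAACA, here on the opposite strand) in Btg1, while no searched motif was found in the Cdkn2c stretch.
Cdk4: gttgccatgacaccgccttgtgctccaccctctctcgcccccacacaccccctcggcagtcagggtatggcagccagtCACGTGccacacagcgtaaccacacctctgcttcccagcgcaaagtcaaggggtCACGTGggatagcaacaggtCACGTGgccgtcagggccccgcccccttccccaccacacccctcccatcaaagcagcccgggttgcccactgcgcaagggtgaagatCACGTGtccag
Cdkn2c: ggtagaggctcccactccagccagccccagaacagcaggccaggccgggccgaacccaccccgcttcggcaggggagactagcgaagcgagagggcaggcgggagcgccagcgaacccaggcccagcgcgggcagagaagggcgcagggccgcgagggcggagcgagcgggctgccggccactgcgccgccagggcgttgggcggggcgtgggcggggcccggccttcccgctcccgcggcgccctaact
Btg1: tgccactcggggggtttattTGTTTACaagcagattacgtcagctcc
The Cdk4 stretch held 4 copies of the E-box, 172, 118, 98 and 11 bases before the start. Cdk6 held 1 copy, 220 bases before its start, and Cdkn2c held 1 copy 34 bases after its inner start, outside the stretch shown. At least 1 copy was found in 7.15% of the 32851 windows in the table, and 4 or more in 8 of them (0.0244%). The E-box was chosen after the sequences were seen. A FOXO-type site stood 204 bases before the start of Btg1 and 243 bases before 1 of the starts of Ccnd3, and 7.97% of all windows held one. An E2F-type site (TTTCCCGC, TTTGGCGC, TTTCGCGC or TTTGCCGC, both strands) was found in 0 of the 11 member windows and in 2.26% of all windows. These matches describe letters only, not bound sites.

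Differences between arrays within groups bear on several members. On the replicate 1 array of every group Xist, which the inactive X chromosome of female cells transcribes, lay between 11.72 and 12.27 log2, against 4.05 to 5.10 on the other 8 arrays. Eif2s3y, on the Y chromosome, read 3.31 to 4.26 on the replicate 1 arrays and 8.75 to 9.37 elsewhere. Values are therefore also given for replicate 1 alone and for replicates 2 and 3 alone, a split chosen after these transcripts were seen. The β-actin controls read the 3′ end above the 5′ end, a gap that grows as RNA breaks down. It averaged 0.63 ± 0.12, 1.62 ± 0.81, 1.24 ± 0.41 and 1.33 ± 0.88 log2 (SD, n = 3) for MCC at 2 µg, MCC at 0.2 µg, 102S at 2 µg and 102S at 0.2 µg. All 7 T cell genes passed the filter, with Cd3d between 12.71 and 13.06 and Cd4 between 6.80 and 7.75 on all arrays. Of these 7, 0 passed the test between peptides at 2 µg and 1 was higher with MCC at 0.2 µg. At that dose Cd5 averaged 10.14 with MCC against 9.03 with 102S, the widest gap of the 7. Cd8b1, a gene of CD8 T cells, lay between 7.03 and 8.31, a range that overlaps that of Cd4. Of the markers of other cells, the mean level of 6 genes of CD8 T and NK cells lay between 4.95 and 5.11, 5.30 and 5.88, 5.80 and 5.83, and 6.26 and 6.44 in the same order of groups, with 2 of 5 tested genes lower with MCC at each dose (Klrd1 and Gzma at 2 µg, Klrd1 and Prf1 at 0.2 µg). The mean of 7 B cell genes lay between 5.77 and 5.98, 5.76 and 5.79, 5.47 and 5.49, and 5.39 and 6.01, while the defining genes Cd79a, Ms4a1 and Blk were below the filter. Of 4 B cell genes tested, Cd74 was higher with MCC at 2 µg (7.23 against 6.04 log2). At 0.2 µg Cd74 (7.23 against 5.84) and Cd79b (5.73 against 4.47, below the filter) were higher and Ighm was lower (10.47 against 11.45). Of 8 myeloid genes 2 passed the filter, and of 2 red cell genes 0 did. The part of these cells in the results below was not tested.

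At 2 µg, 1 of the 19 member probe sets passed the test between MCC and 102S (5.26%), that of Cdkn2c, which was higher with MCC. Over all tested probe sets the share was 10.3% (4.04% higher and 6.23% lower), so the members were not called more often than the array as a whole. At 0.2 µg, 5 of the 19 passed (26.3%), against 14.3% of all tested probe sets (7.85% higher and 6.45% lower), but these 5 stand for only 3 genes. All 3 probe sets of Cdk4 and that of Cdkn2c were higher with MCC, and 1 of the 7 of Ccnd2 was lower. Tests were made with limma on log2 values, with Benjamini-Hochberg adjustment over all 13556 probe sets and a threshold of 0.05. The count at 0.2 µg was 3 when MCC 0.2 µg replicate 2, MCC 0.2 µg replicate 3 or 102S 0.2 µg replicate 1 was left out, because only the standing probe set of Cdk4 (the one with its highest mean) then passed for that gene. At 2 µg the count was 0 with replicates 2 and 3 alone and 2 without MCC 2 µg replicate 3, where a further probe set of Ccnd2 passed. With replicate 1 against 2 and 3 as a block it was 3 at 2 µg, where both probe sets of Btg2 joined Cdkn2c, and 7 at 0.2 µg.

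**Figure D1:**
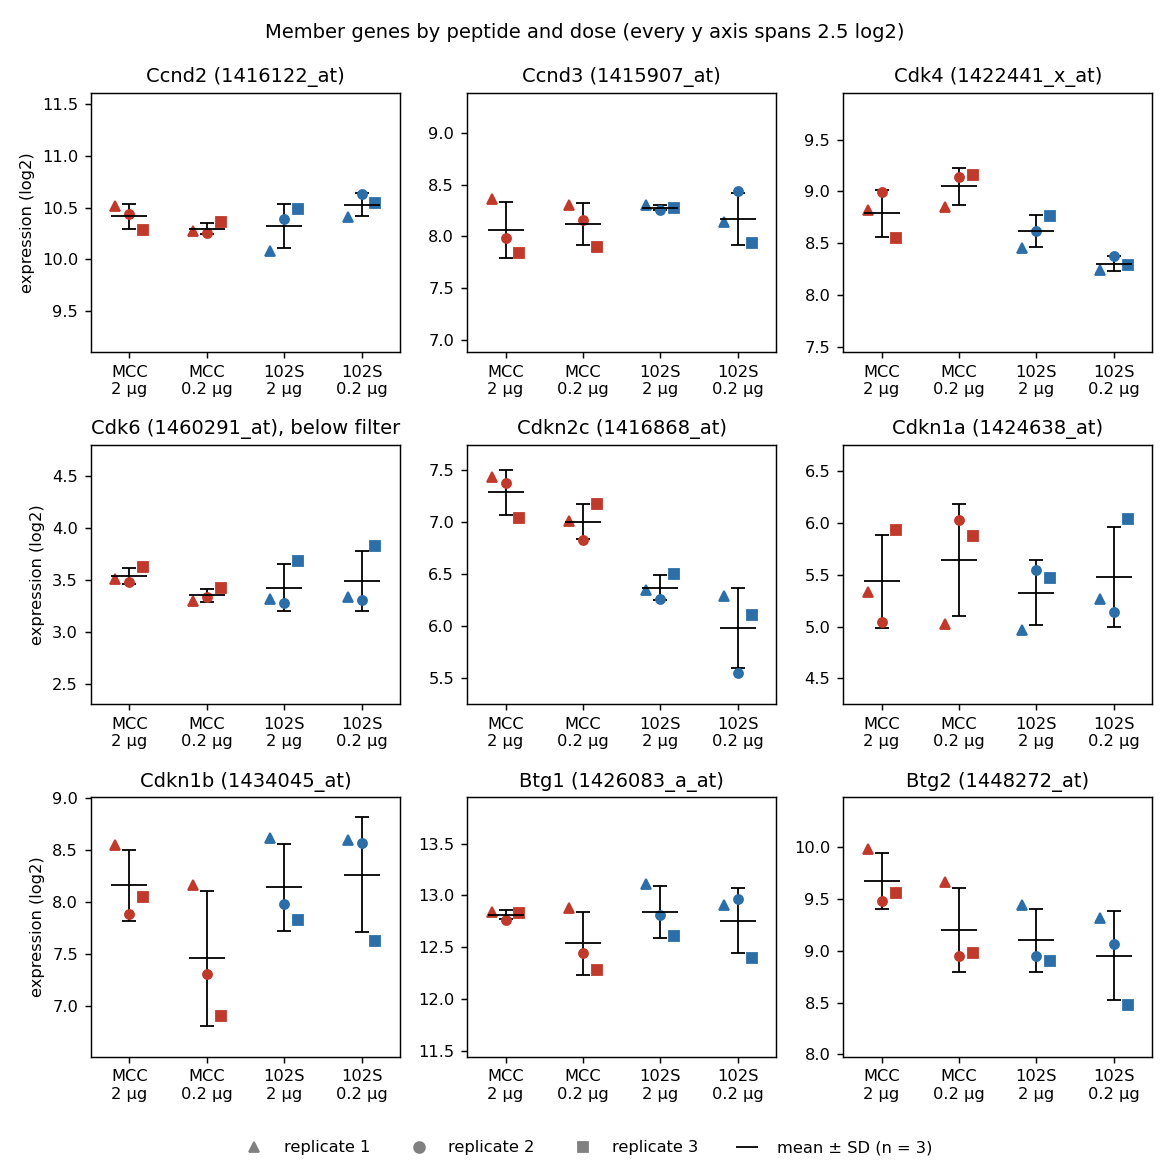
Log2 level of the standing probe set of each member on each of the 12 arrays, in 4 groups of 3 arrays, with the group mean and SD beside the points. Triangles are replicate 1, circles replicate 2 and squares replicate 3. Cdkn2c and, at 0.2 µg, Cdk4 are the panels in which the MCC arrays lie above the 102S arrays with an adjusted p below 0.05.

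Ccnd2, the D-type cyclin most associated with activated lymphocytes, was measured by 7 probe sets that did not all behave alike. Its standing probe set read 10.52, 10.44 and 10.28 log2 with MCC at 2 µg, 10.27, 10.26 and 10.36 with MCC at 0.2 µg, 10.08, 10.39 and 10.49 with 102S at 2 µg, and 10.41, 10.63 and 10.55 with 102S at 0.2 µg. At 0.2 µg the 3 MCC arrays lay below the 3 102S arrays (14.7% of all probe sets did so), by a difference of -0.23 ± 0.11 log2 that did not pass (adjusted p = 0.202). At 2 µg the groups overlapped, and the difference was 0.09 ± 0.11 (adjusted p = 0.676).

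The second brightest Ccnd2 probe set, 1434745_at, is the one that passed. It read 10.32, 9.96 and 9.94 log2 with MCC at 2 µg, 10.32, 9.91 and 10.09 with MCC at 0.2 µg, 10.39, 10.21 and 10.27 with 102S at 2 µg, and 10.84, 11.04 and 10.58 with 102S at 0.2 µg. The arrays with 102S at 0.2 µg stood above all others, and the share of all probe sets that did so was not computed. Between peptides at 0.2 µg, 14.7% of all probe sets were non-overlapping and lower with MCC. At 0.2 µg the probe set was 1.64-fold lower with MCC, a difference of -0.72 ± 0.15 log2 (95% confidence interval -1.03 to -0.40, adjusted p = 0.00603). The difference was -0.52 on replicate 1 alone and -0.82 on replicates 2 and 3 alone (adjusted p = 0.00471). At 2 µg it was -0.21 (-0.53 to 0.10, adjusted p = 0.422). The other 6 probe sets differed by -0.23 to 0.11 log2 at 0.2 µg and none passed. Of these 6, 5 also read lower with MCC at 0.2 µg, by smaller differences. At 2 µg 1430127_a_at and 1416124_at read higher with MCC, by 0.40 and 0.48 (adjusted p = 0.305 and 0.17). For 1430127_a_at the groups did not overlap, as for 12.3% of all probe sets. It passed in the fit of only the groups compared (adjusted p = 0.0499). The rest of the 6 differed by -0.19 to 0.09. Whether the probe sets differed from each other was not tested. Over the 12 arrays they correlated with the standing one at r of 0.20 to 0.89. Which transcript or stretch of Ccnd2 each probe set reads was not analysed here, and 1455956_x_at and 1448229_s_at carry suffixes that mark probes possibly shared with other transcripts.

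Ccnd3, a D-type cyclin of the same family, did not pass at either dose. It lay at 8.36, 7.99 and 7.84 log2 with MCC at 2 µg, 8.31, 8.16 and 7.90 with MCC at 0.2 µg, 8.30, 8.26 and 8.27 with 102S at 2 µg, and 8.14, 8.43 and 7.94 with 102S at 0.2 µg. All groups overlapped. The MCC minus 102S difference was -0.21 at 2 µg (-0.58 to 0.15, adjusted p = 0.495) and -0.05 at 0.2 µg (-0.41 to 0.31, adjusted p = 0.883), and these intervals include changes of either sign at both doses.

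Cdk4, the catalytic partner of the D-type cyclins, was the member with the most probe sets called. Its standing probe set, 1422441_x_at, read 8.82, 8.998 and 8.55 log2 with MCC at 2 µg, 8.85, 9.14 and 9.16 with MCC at 0.2 µg, 8.46, 8.62 and 8.77 with 102S at 2 µg, and 8.24, 8.38 and 8.29 with 102S at 0.2 µg. The highest group was MCC at 0.2 µg and the lowest 102S at 0.2 µg, and these 2 groups did not overlap (13.9% of all probe sets were non-overlapping and higher with MCC at that dose). At 0.2 µg Cdk4 was 1.68-fold higher with MCC, a difference of 0.75 ± 0.14 log2 (0.44 to 1.05, adjusted p = 0.00379). Its other 2 probe sets gave 0.79 ± 0.19 (adjusted p = 0.0153) and 0.78 ± 0.20 (adjusted p = 0.0232), and over the 12 arrays they correlated with the first at r = 0.926 and r = 0.929. The suffix of the first allows for probes shared with transcripts of other genes, and those of the other 2 do not. The difference was 0.61 on replicate 1 alone and 0.82 on replicates 2 and 3 alone (adjusted p = 0.0117).

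At 2 µg the Cdk4 groups overlapped and the difference was 0.17 (-0.13 to 0.48, adjusted p = 0.512). Whether the peptide difference depended on the dose was tested directly. The interaction subtracts the peptide difference at 0.2 µg from the one at 2 µg. It was -0.57 and did not pass (adjusted p = 0.383). A dose dependence of the Cdk4 difference was thus not shown, although it passed the test at 1 dose and not at the other. Cdk6, the related kinase, lay between 3.28 and 3.83 log2 on all arrays, below the filter, and was not tested. Its group means were 3.54 with MCC at 2 µg, 3.35 with MCC at 0.2 µg, 3.43 with 102S at 2 µg and 3.49 with 102S at 0.2 µg.

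Cdkn2c, which encodes the INK4 inhibitor p18, was the member called at both doses. It read 7.44, 7.38 and 7.04 log2 with MCC at 2 µg, 7.01, 6.83 and 7.17 with MCC at 0.2 µg, 6.34, 6.26 and 6.50 with 102S at 2 µg, and 6.29, 5.55 and 6.11 with 102S at 0.2 µg. Every MCC array stood above every 102S array, at either dose, and the share of all probe sets that did so over both doses was not computed. At 2 µg it was 1.89-fold higher with MCC (0.92 ± 0.20 log2, 0.50 to 1.34, adjusted p = 0.0106), where 12.3% of all probe sets were non-overlapping and higher. At 0.2 µg it was 2.03-fold higher (1.02 ± 0.20 log2, 0.60 to 1.45, adjusted p = 0.00409), where 13.9% of all probe sets were non-overlapping and higher. An inhibitor of the cyclin D kinases and 1 of those kinases were thus both higher with MCC at the lower dose.

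The size of the Cdkn2c difference did not pass a test of dependence on dose, with an interaction of -0.10 (adjusted p = 0.921). At 2 µg the difference was 1.10 on replicate 1 alone and 0.83 ± 0.26 on replicates 2 and 3 alone, where it no longer passed (adjusted p = 0.0867). At 0.2 µg it was 0.72 on replicate 1 alone and 1.18 on replicates 2 and 3 alone (adjusted p = 0.0121). Even the lower dose of MCC read above the higher dose of 102S on every array (9.59% of all probe sets did so), by 0.64 ± 0.20 log2, but that comparison did not pass (adjusted p = 0.124).

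**Figure D2:**
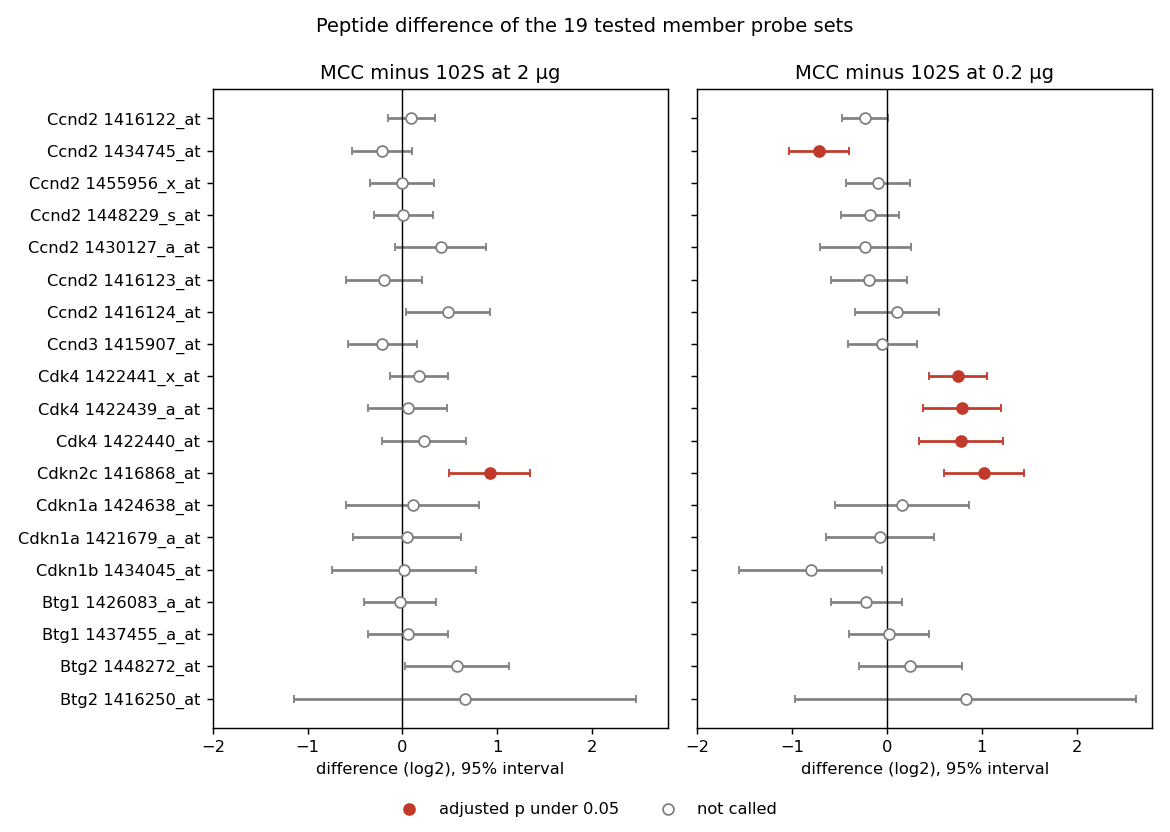
MCC minus 102S difference in log2 for each tested member probe set, at 2 µg and at 0.2 µg, with 95% confidence intervals from limma. Filled points have an adjusted p below 0.05. They are Cdkn2c at both doses (0.92 and 1.02), the 3 probe sets of Cdk4 at 0.2 µg and, below 0, 1 probe set of Ccnd2 at 0.2 µg.

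Cdkn1a, the p53 target that encodes p21, was dim and varied within groups as much as between them. Its standing probe set read 5.34, 5.04 and 5.93 log2 with MCC at 2 µg, 5.02, 6.03 and 5.87 with MCC at 0.2 µg, 4.97, 5.55 and 5.47 with 102S at 2 µg, and 5.27, 5.14 and 6.03 with 102S at 0.2 µg. All groups overlapped. The differences were 0.11 at 2 µg (-0.60 to 0.81, adjusted p = 0.886) and 0.16 at 0.2 µg (-0.55 to 0.86, adjusted p = 0.803), intervals too wide to exclude a moderate change. The second probe set gave 0.05 and -0.07.

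Cdkn1b, which encodes p27, abundant in resting cells, varied widely between replicates. It read 8.55, 7.89 and 8.05 log2 with MCC at 2 µg, 8.17, 7.30 and 6.90 with MCC at 0.2 µg, 8.62, 7.98 and 7.82 with 102S at 2 µg, and 8.60, 8.56 and 7.62 with 102S at 0.2 µg. The 3 lowest arrays, at 6.90, 7.30 and 7.62, are those with the largest β-actin 3′ minus 5′ differences, 2.33, 1.78 and 2.35. At 0.2 µg the difference was -0.81 ± 0.35 log2 (-1.56 to -0.05), which did not pass (adjusted p = 0.153), and the groups overlapped. It was -0.43 on replicate 1 alone and -0.99 on replicates 2 and 3 alone, where it passed (adjusted p = 0.0359). At 2 µg the difference was 0.02 (-0.74 to 0.78, adjusted p = 0.985), and with the β-actin difference as a covariate it turned to -0.44 and passed (adjusted p = 0.0306). With the same covariate the 0.2 µg difference was -0.59 and passed (adjusted p = 0.00326). With replicate 1 against 2 and 3 as a block it was -0.81 and passed at 0.2 µg (adjusted p = 0.0146). Its call at 0.2 µg therefore changed with the fit while the direction did not. The second probe set, below the filter, lay between 3.94 and 4.65.

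Btg1 was among the brightest transcripts on the array, at the 99.2nd percentile of mean level over all probe sets. Its standing probe set read 12.84, 12.76 and 12.84 log2 with MCC at 2 µg, 12.88, 12.45 and 12.29 with MCC at 0.2 µg, 13.11, 12.81 and 12.61 with 102S at 2 µg, and 12.90, 12.96 and 12.39 with 102S at 0.2 µg. The groups overlapped at both doses. The differences were -0.03 at 2 µg (-0.41 to 0.35, adjusted p = 0.948) and -0.22 at 0.2 µg (-0.60 to 0.16, adjusted p = 0.461). With the β-actin covariate the 2 µg difference was -0.27 and passed (adjusted p = 0.00274). The second Btg1 probe set lay between 11.95 and 13.03 and hardly followed the first over the 12 arrays (r = 0.116). Its differences were 0.06 at 2 µg (adjusted p = 0.892) and 0.02 at 0.2 µg (adjusted p = 0.965). It was not called with the β-actin covariate.

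Btg2, an immediate early gene and p53 target, was read by 2 probe sets. Both averaged higher with MCC than with 102S at each dose, while single arrays of the peptides overlapped in part. The standing one read 9.98, 9.48 and 9.56 log2 with MCC at 2 µg, 9.66, 8.95 and 8.98 with MCC at 0.2 µg, 9.44, 8.95 and 8.90 with 102S at 2 µg, and 9.31, 9.07 and 8.47 with 102S at 0.2 µg. At 2 µg the MCC arrays lay above the 102S arrays without overlap, as 12.3% of all probe sets did. The difference was 0.57 ± 0.25 log2 (0.03 to 1.12), which did not pass over all probe sets (adjusted p = 0.186). It was 0.54 on replicate 1 alone and 0.59 on replicates 2 and 3 alone (adjusted p = 0.0898). With replicate 1 against 2 and 3 as a block the same difference passed (adjusted p = 0.00913). At 0.2 µg the groups overlapped and the difference was 0.25 (-0.30 to 0.79, adjusted p = 0.573).

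The second Btg2 probe set, 1416250_at, separated replicate 1 from the other replicates in every group. It read 10.44, 8.52 and 8.42 log2 with MCC at 2 µg, 10.25, 8.30 and 8.13 with MCC at 0.2 µg, 9.84, 7.74 and 7.83 with 102S at 2 µg, and 9.70, 7.55 and 6.95 with 102S at 0.2 µg. The 4 replicate 1 arrays lay between 9.70 and 10.44 and the 8 others between 6.95 and 8.52, a mean gap of 2.13 log2. The same gap was 0.56 for the standing Btg2 probe set and 0.72 for Cdkn1b, so the 2 probe sets of Btg2 did not share its size. Within replicate 1 and within replicates 2 and 3, at both doses, each MCC array read above each 102S array. These sets hold 1 or 2 arrays per group, and the share of all probe sets that did so was not computed. The MCC minus 102S difference was 0.61 on replicate 1 alone and 0.69 on replicates 2 and 3 alone at 2 µg (adjusted p = 0.086), and 0.55 and 0.97 at 0.2 µg (adjusted p = 0.012 for replicates 2 and 3). Over all arrays together the gap widened the error, and the differences were 0.66 ± 0.83 at 2 µg (adjusted p = 0.694) and 0.83 ± 0.83 at 0.2 µg (adjusted p = 0.566). With replicate 1 against 2 and 3 as a block the same differences passed at 2 µg (adjusted p = 0.0102) and at 0.2 µg (adjusted p = 0.00172). Across the fits, 1416250_at was called only where replicate number or that split was in the fit, or replicate 1 was left out of every group. The standing Btg2 probe set also passed in fits without that split. These were the fit of only the groups compared at 2 µg (adjusted p = 0.0471) and the β-actin covariate fit at 0.2 µg (adjusted p = 0.0192). The cell sex of replicate 1 and any other difference in its handling cannot be told apart.

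**Figure D3:**
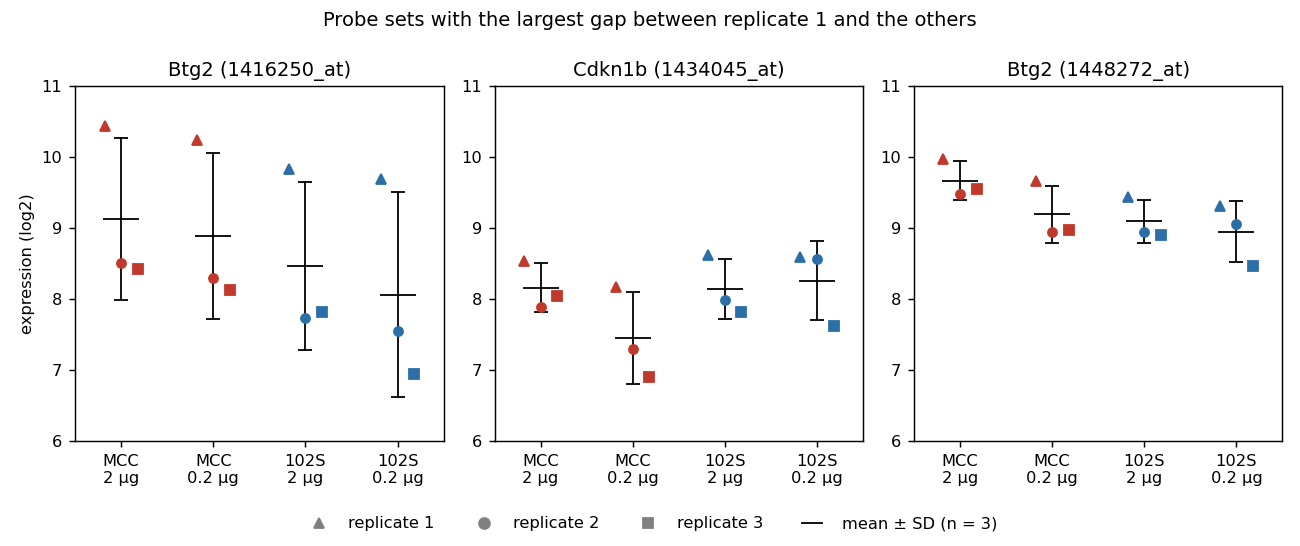
Log2 levels by array of the member probe sets with the largest mean gap between replicate 1 and the other replicates, 2 of Btg2 and 1 of Cdkn1b, in the 4 groups. Triangles are replicate 1, circles replicate 2 and squares replicate 3. For Btg2 1416250_at the 4 triangles lie between 9.70 and 10.44 and all other points at or below 8.52.

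No member probe set passed in the remaining 4 comparisons. Between 2 µg and 0.2 µg of MCC, 0 of 19 passed, against 1.76% of all tested probe sets, and 1 had an unadjusted p below 0.05, against 18% of all. Between 2 µg and 0.2 µg of 102S, 0 passed, against 3.16%, and 2 had an unadjusted p below 0.05, against 13%. For the interaction of peptide and dose, 0 passed, against 0.767%, and 3 had an unadjusted p below 0.05, against 8.64%. For 0.2 µg of MCC against 2 µg of 102S, 0 passed, against 2.48%, and 2 had an unadjusted p below 0.05, against 15.6%. With 19 probe sets, 0 calls are close to these background shares. The dose comparisons share groups with the peptide comparisons and are not independent of them. The value nearest to the threshold was that of Ccnd2 1434745_at for the dose of 102S, -0.53 ± 0.15 log2 (adjusted p = 0.084), with 102S at 2 µg below 102S at 0.2 µg on every array (8.08% of all probe sets did so). With replicate 1 against 2 and 3 as a block that value passed (adjusted p = 0.0171). So did Btg2 1448272_at for the dose of MCC (0.47, adjusted p = 0.0476) and Cdk4 1422439_a_at for the interaction (-0.74, adjusted p = 0.0447).

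Other genes of G1 and of entry into S phase included larger differences than that of any member. Of 32 listed, 24 were tested. Over all tested probe sets 10.3% passed at 2 µg and 14.3% at 0.2 µg. At 2 µg, 6 were higher with MCC, 1 was lower and 17 did not pass, with a median difference of 0.14 log2 against -0.04 over all tested probe sets. At 0.2 µg, 9 were higher, 1 was lower and 14 did not pass, with a median of 0.42 against -0.04. Ccna2, the cyclin of S phase, averaged 8.30, 7.80, 6.67 and 4.01 log2 with MCC at 2 µg, MCC at 0.2 µg, 102S at 2 µg and 102S at 0.2 µg. It was higher with MCC by 1.63 ± 0.27 at 2 µg (adjusted p = 0.00294) and by 3.79 ± 0.27 at 0.2 µg (adjusted p = 2.39e-06). At 0.2 µg the mean with 102S lay below the filter for Ccna2, Cdk1, E2f8 and E2f3. The filter is a percentile and not a detection limit, and whether these differences understate the change was not tested. The interaction of Ccna2, -2.16 ± 0.38, was the one that passed in this list (adjusted p = 0.0202).

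Cdk1, the mitotic kinase, was higher with MCC by 1.41 at 2 µg and 2.55 at 0.2 µg. Cks2, a small subunit that binds these kinases, was higher by 1.30 and 3.36, and E2f8, a repressor of the E2F family, by 1.35 and 2.22. Tfdp1, the dimerisation partner of E2F, was higher by 0.96 ± 0.20 at 2 µg (adjusted p = 0.0106) and 0.81 ± 0.20 at 0.2 µg (adjusted p = 0.0203). The activator E2f1 was higher at 2 µg by 0.71 (adjusted p = 0.0356), and its value at 0.2 µg was 0.40 (adjusted p = 0.202). At 0.2 µg Cks1b, Mnat1, E2f3 and Ccng2 were also higher.

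A pair of INK4 inhibitors went opposite ways at 0.2 µg. Cdkn2d, which encodes p19 of the same family as Cdkn2c, averaged 8.41 ± 0.10, 7.96 ± 0.27, 8.56 ± 0.15 and 8.79 ± 0.34 log2 (SD, n = 3) in the order of groups above. It was lower with MCC at 0.2 µg by a difference of -0.83 ± 0.18 (adjusted p = 0.00879), where Cdkn2c was higher, and at 2 µg the difference was -0.15 (adjusted p = 0.678). E2f5, a repressive E2F, was the gene lower with MCC at 2 µg, at -0.96 ± 0.19 (adjusted p = 0.00725), with -0.50 at 0.2 µg (adjusted p = 0.104). The kinase Cdk2, which binds E-type cyclins, differed by 0.32 at 2 µg and 0.02 at 0.2 µg and was not called, and Rb1 by -0.04 at both doses.

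**Figure D4:**
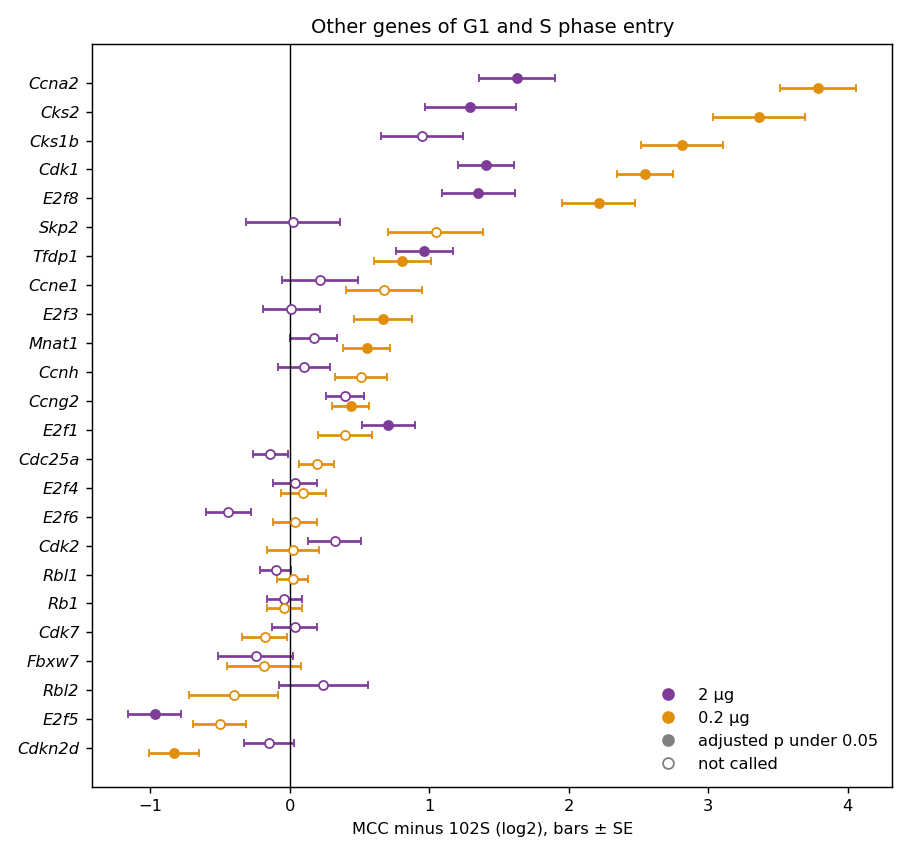
MCC minus 102S difference in log2 with its standard error for tested genes of the G1 and S phase list, at 2 µg and at 0.2 µg. Filled points have an adjusted p below 0.05. Ccna2 is the highest at both doses (1.63 and 3.79), and E2f5 at 2 µg and Cdkn2d at 0.2 µg are the genes called below 0.

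The proliferation markers were higher with MCC, 6 of 9 tested at 2 µg and 8 of 9 at 0.2 µg, with 0 lower and median differences of 1.28 and 1.36. Over all tested probe sets 10.3% passed at 2 µg (4.04% higher and 6.23% lower). At 0.2 µg 14.3% of all passed (7.85% higher and 6.45% lower). Mki67, a marker of cycling cells, averaged 10.03, 9.48, 8.28 and 3.96 log2 with MCC at 2 µg, MCC at 0.2 µg, 102S at 2 µg and 102S at 0.2 µg. The last of these means lay below the filter. Cdkn2c at both doses and Cdk4 at 0.2 µg passed in the same direction as these markers, whereas the standing probe sets of Ccnd2, Ccnd3, Cdkn1a, Cdkn1b, Btg1 and Btg2 did not pass at either dose. Among FOXO and other quiescence factors, 10 were tested. At 2 µg, 0 were higher and 3 lower with MCC, namely Klf2 (-1.56), Foxo3 (-0.54) and Foxo1 (-0.31). At 0.2 µg, 1 was higher (Sesn3, 0.70) and 2 were lower (Klf2 at -3.33 and Runx1 at -0.54). Klf2, which keeps naive T cells in the circulation, was the largest of these. Foxo1 and Foxo3 drive Cdkn1b transcription in many cells.

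Of a list of TOB genes, further BTG genes and CCR4-NOT deadenylase genes, with Pabpc1 and Pan2, 12 were tested. They included Tob1 and Tob2 but no BTG gene beyond the members. At either dose limma called 0, against 10.3% of all tested probe sets at 2 µg and 14.3% at 0.2 µg. An unadjusted p below 0.05 was seen for 4 of 12 at 2 µg and 2 of 12 at 0.2 µg. Over all tested probe sets that share was 23.6% at 2 µg and 27.9% at 0.2 µg. Of the p53 pathway, which controls Cdkn1a and Btg2, 14 were tested. At 2 µg limma called 0 and 2 had an unadjusted p below 0.05. At 0.2 µg 1 gene passed, the p53 regulator Mdm4, lower with MCC by a difference of -0.80 ± 0.19 (adjusted p = 0.0133).

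The genes whose levels ran most alike to each member were named by Pearson's r over the 12 arrays, as a description. The arrays share groups, replicate numbers and RNA quality. Cdk4 ran most like Pdrg1 (0.971), Fh1 (0.965) and Med9 (0.965). Cdkn2c ran most like Cdca5 (0.968), Ttk (0.967) and Slc29a3 (0.967), of which Cdca5 and Ttk act in the chromosome cycle. Cdkn1b ran most like the class I gene H2-D1 (0.981) and the transcription factors Fli1 (0.98) and Ets1 (0.978). Btg1 ran most like Ppp2r5c (0.972), Tex261 (0.971) and Clint1 (0.968), and Btg2 most like Ndfip1 (0.977), Il6st (0.964) and Bcl2l11 (0.96). Cdkn1a ran most like Clcn5 (0.962), Tubb4b (0.956) and St8sia3 (0.955), and Ccnd3 most like Retreg2 (0.918), Zc3h10 (0.876) and Eif4e3 (0.871). For Ccnd2 the closest were Ncoa2 (0.811), Sptan1 (0.798) and Chordc1 (0.791), the lowest top values of the 9 members. Cdk6, below the filter, ran most like Gtpbp2 (0.906), Fgd3 (0.858) and Wnt3a (0.846).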

How the data were processed

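The authors deposited 1 log2 value per probe set and array for 12 arrays in 4 groups. That the deposited scale is log2 was read from the values, which lie between 1.86 and 14.74 and exceed 11.09, the natural log of a 16-bit maximum of 65535. The submitters' processing notes name the software GCOS 1.4. Not given in the sources used here is how probes were summarised and normalised. Labelling used 100 ng of RNA, a 3′ transcription kit and 16 h of transcription, per the labels' protocols. Array medians spanned 5.17 to 5.26, so no further scaling was applied. Arrays have no read depth, and their number limits the precision (median standard error 0.184 log2).

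The model was lmFit and eBayes (intensity trend) of limma 3.58.1 in R 4.3.3, fitted to 4 group means over 12 arrays, with 8 residual and 4.16 prior degrees of freedom. Tests were 2-sided over 13556 non-control probe sets at or above the 40th percentile of mean level. Of 22690 probe sets, 20393 had 1 gene symbol, 691 several and 1606 none. The ± values are standard errors for differences and SDs for group means, and intervals are 95%. The fit was tested on simulated data. All 9 members were named, and from the G1 and S phase, BTG and TOB, p53, FOXO and proliferation lists up to 4 genes per comparison by smallest p, plus genes that account for small counts. Cdk2, Rb1, Tfdp1, E2f1, Mnat1, E2f3 and Ccng2 were named beyond this rule, after their values were seen. Members and lists were chosen with earlier results of these data known. The alternatives were median centring, quantile normalization, no filter, a 60th percentile filter, eBayes without trend, only the groups compared, a replicate block, replicates 2 and 3 only, a β-actin covariate and leaving out each array in turn. Replicate 1 against 2 and 3 as a block, and replicate 1 alone, were added after the data were seen. Same-numbered arrays deviated together at r above 0.1 in 16 of 18 pairs (-0.287 to 0.822). Replicate 1 pairs lay at 0.555 or above, replicate 2 pairs between -0.287 and 0.393, and replicate 3 pairs between 0.217 and 0.656. Arrays of the same number thus shared part of their scatter, most clearly for replicate 1. The labels state no pairing, and the main model left replicate number out, so only the block fits allow for it.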

Additional observations from a re-analysis of the deposited data

How the results depend on the processing

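The count of member probe sets called was recomputed under each alternative, beside 1 at 2 µg, 5 at 0.2 µg and 0 in the other comparisons. For MCC against 102S at 2 µg it was 3 with only the groups compared, 3 with the replicate block, 3 with replicate 1 against 2 and 3 as a block, 0 with replicates 2 and 3 only and 4 with the β-actin covariate (1 higher, 3 lower). At 0.2 µg it was 4 with only the groups compared and 7 with either block, with replicates 2 and 3 only and with the β-actin covariate. Cdkn1b was gained in each of those 4 fits, beside Btg2 1416250_at in all but the covariate fit, which gained Btg2 1448272_at. Leaving out 1 array gave 1 to 2 at 2 µg and 3 to 6 at 0.2 µg. For the dose of MCC it was 3 with the replicate block and 1 with replicate 1 against 2 and 3 as a block. For the dose of 102S it was 1 with quantile normalization, 1 with the replicate block, 1 with replicate 1 as a block, 2 with the β-actin covariate and 0 to 1 with 1 array left out (1 without 102S 0.2 µg replicate 3). For the interaction it was 1 with either block, the Cdk4 probe set 1422439_a_at (-0.74, adjusted p = 0.0419 with the replicate block), and for 0.2 µg of MCC against 2 µg of 102S it was 2 with the replicate block. Both blocks called both Btg2 probe sets at 2 µg (1448272_at at adjusted p = 0.00686 with the replicate block and 0.00913 with replicate 1 as a block). Of 12 arrays 10 correlated best with an array of their own number, a hint from the data and not from the design.

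One value reversed, Cdkn1b at 2 µg, at -0.44 with the β-actin covariate. At 0.2 µg the standing probe set of Cdk4, Cdkn2c and Ccnd2 1434745_at were called under all 10 alternatives and all 12 omissions, and Cdkn2c at 2 µg under 9 of 10 and all 12. The other Cdk4 probe sets lost their call in 3 and 4 omissions. Causes were not tested. Over all probe sets the counts called ranged widely, from 772 to 3330 under the alternatives and 700 to 1601 under omissions at 2 µg (1392 as reported), and from 1071 to 3645 and 1051 to 2785 at 0.2 µg (1939 as reported). The other counts called were 239 for the dose of MCC (74 to 1563 and 61 to 1208), 429 for the dose of 102S (269 to 1420 and 210 to 501), 104 for the interaction (81 to 321 and 62 to 142) and 336 for 0.2 µg of MCC against 2 µg of 102S (130 to 1176 and 85 to 654). The interaction could not be fitted with only the groups compared, and Cdkn1a has no value under the stricter filter.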
